A study of Mus musculus with 2 samples.

Results

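The 7 genes of the ADP-ribosylation system grouped here as interferon-induced, Parp8, Parp9, Parp10, Parp11, Parp12, Parp14 and Dtx3l, were followed across the cells of MC38 tumors with and without local irradiation. The members were chosen by symbol, and all 7 of 7 were matched among the 32285 genes of each matrix. MC38 is a mouse colon carcinoma line, and the tumors grew under the skin of wild-type (WT) mice. Per the methods of the study, live CD45+ cells were sorted from 4 pooled tumors per group and made into 10x Genomics 3′ libraries, in which RNA molecules are counted by their barcode tags, or UMIs (unique molecular identifiers). Per the methods, mice of both sexes aged 8 to 10 weeks were used. The study names C57BL/6 mice and also calls Ythdf2 fl/fl mice on the C57BL/6J background WT, and which of these gave the libraries is not stated in the sources used here. The Control group was not irradiated, and the IR group was collected 4 days after a single tumor-local dose of 20 Gy. Each group was 1 library, so no value has a replicate check, animals cannot be told apart within a library, and no p-value is given.

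PARP enzymes take ADP-ribose from NAD and attach it to proteins or nucleic acids, and most members of the family outside the DNA repair enzymes attach a single unit (mono-ADP-ribosylation). Several of them are transcribed in response to interferons, the cytokines of antiviral defence, and some limit viral replication or are countered by viral enzymes that strip ADP-ribose off again. In macrophages, PARP14 and PARP9 are known as regulators of interferon and STAT signalling. DTX3L is not a PARP but a Deltex ubiquitin ligase that works as a complex with PARP9.

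Barcodes with at least 1000 UMIs and at most 25% mitochondrial UMIs were kept, which gave 4679 Control and 3411 IR cells with 41533178 and 37848469 UMIs in all and a median of 7302 and 8266 UMIs per cell. Only 6 of these barcodes were shared by both libraries. Lineages were set by marker genes: 702 Control and 875 IR cells were monocyte-like, 1941 and 541 macrophage-like, 415 and 263 T cell-like, 322 and 398 NK cell-like, 136 and 159 dendritic cell (DC)-like, and 25 and 141 neutrophil-like. The sample records name a narrower CD45+CD11b+Ly6Chi population, but T and NK cell-like cells were present with CD11b (Itgam) at no more than 85.0 CPM (the UMIs of a gene scaled to a population total of 1000000), against at least 340 CPM in monocyte-like and macrophage-like cells. A further 94 cells in each library expressed collagen genes and had little of the CD45 gene Ptprc (4.66 CPM in Control against 4.79 CPM in IR), so they were not what the sort selected. Intervals are exact 95% intervals and cover counting error only.

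The members lie at 5 places in the mouse genome (GENCODE vM21, GRCm38). Parp14 (ENSMUSG00000034422, chromosome 16, 35832874 to 35871544, minus strand), Dtx3l (ENSMUSG00000049502, 35926511 to 35939151, minus strand) and Parp9 (ENSMUSG00000022906, 35938470 to 35972605, plus strand) sit together within 139732 bp. Dtx3l and Parp9 are read in opposite directions and overlap where they start, their starts being 681 bp apart, while 3′ libraries count the far ends of both genes. Parp12 (ENSMUSG00000038507, 39086410 to 39118349, minus strand) and Parp11 (ENSMUSG00000037997, 127446840 to 127494261, plus strand) are on chromosome 6, Parp8 (ENSMUSG00000021725, 116854820 to 117025537, minus strand) is on chromosome 13, and Parp10 (ENSMUSG00000063268, 76231174 to 76243441, minus strand) is on chromosome 15. The Parp10 annotation overlaps that of Plec on the same strand, so reads from the shared part could have been assigned to either gene or dropped.

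Promoter sequence from RefSeq (GRCm38.p6) was read for Parp8, Parp11, Parp12 and Dtx3l, in windows of 250 bases before to 50 bases after each start, to look for the letters of 2 DNA elements of interferon signalling. These were the interferon-stimulated response element, searched as GAAANNGAAA, and the gamma-activated site, searched as TTCNNNGAA, each on both strands. Only the 250 bases before the start were searched, in these and in all other windows. The bases just before the start are printed for a window that held both and for 2 that held neither, with matched letters in capitals and bases inside the GENCODE gene left off.
Parp11 (chr6:127446740-127446839, plus strand): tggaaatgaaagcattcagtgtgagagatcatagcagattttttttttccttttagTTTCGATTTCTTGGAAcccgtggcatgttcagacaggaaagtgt
Parp12 (chr6:39118350-39118449, minus strand): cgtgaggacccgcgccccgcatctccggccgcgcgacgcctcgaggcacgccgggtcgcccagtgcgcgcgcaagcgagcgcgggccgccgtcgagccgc
Parp8 (chr13:117025538-117025631, minus strand): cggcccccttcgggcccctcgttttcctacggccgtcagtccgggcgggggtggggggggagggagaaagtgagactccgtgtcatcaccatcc
The Parp11 match to the first element lay from -44 to -35 relative to the start, on the strand opposite to the gene, and overlapped the match to the second element from -37 to -29. A further Parp11 start and the windows of Parp12, Parp8 and Dtx3l held neither set of letters. Over all 32851 windows, 2.98% held the first and 7.02% the second, and among windows of a reference list of 10 interferon-induced genes (among them Isg15, Ifit1, Ifit3, Rsad2 and Irf7) 5 of 9 held the first and 0 the second. Promoters of Parp9, Parp10 and Parp14 were not analysed here.

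The first comparison asked how the members differed between irradiated and Control tumors in monocyte-like cells, the population that includes the myeloid cells at the centre of the study. In these cells 6 of 7 members were at least 1.5-fold higher in IR, with at least 50 UMIs over both libraries, against 6.0% of the 8934 genes tested, and the ratio interval lay above 1 for the same 6, against 14.1% of genes with at least 20 UMIs. The median member had a log2 ratio of 0.88 (1.84-fold), while the median of all genes tested was -0.05. The 7 members together went from 234 CPM (221 to 248) in Control to 435 CPM (421 to 449) in IR.
Parp14, a mono-ADP-ribosyltransferase with macrodomains that bind ADP-ribose, had 293 UMIs or 60.9 CPM (54.1 to 68.3) in Control against 1101 UMIs or 133 CPM (125 to 141) in IR, a ratio of 2.18 (1.91 to 2.49). Parp10, a mono-ADP-ribosyltransferase with RNA-binding and ubiquitin-binding parts, went from 34.1 CPM (29.1 to 39.7) to 73.3 CPM (67.6 to 79.3), a ratio of 2.15 (1.81 to 2.57). The level intervals of the libraries did not overlap for either gene.
The partners Parp9 and Dtx3l differed by similar folds. Parp9 had 27.8 CPM (23.3 to 33.0) in Control against 52.8 CPM (48.0 to 58.0) in IR, a ratio of 1.90 (1.56 to 2.32). Dtx3l had 42.4 CPM (36.8 to 48.6) and 77.9 CPM (72.0 to 84.1), a ratio of 1.84 (1.57 to 2.16).
Parp12, whose CCCH zinc fingers bind RNA, went from 38.0 CPM (32.7 to 44.0) to 60.02 CPM (54.9 to 65.5), a ratio of 1.58 (1.33 to 1.88). Parp11, a small WWE-domain enzyme, had the fewest UMIs, 37 in Control and 109 in IR, or 7.69 CPM (5.41 to 10.6) and 13.1 CPM (10.8 to 15.8), a ratio of 1.71 (1.17 to 2.55). Parp8, a less studied mono-ADP-ribosyltransferase, stood apart from the other members: it had 23.3 CPM (19.2 to 28.0) in Control against 25.2 CPM (21.9 to 28.8) in IR, a ratio of 1.08 whose interval (0.856 to 1.37) included 1. Its level intervals overlapped, those of the other 6 members did not. The share of all genes without such overlap was not computed.
Other measures moved with these ratios. The interferon reference list went from 705 to 2689 CPM in monocyte-like cells, with a median log2 ratio of 2.27 and the highest, 3.36, for Ifit3, while 2 of its 10 genes stayed under 1.5-fold. Every member's ratio lay below the median of that list. Summed macrophage markers (C1qa, C1qb and C1qc) went from 323 to 141 CPM, the 5 monocyte markers from 2665 to 1726 CPM, and cell-cycle genes from 265 to 66.2 CPM. The median of the members was 0.90 without cycling cells and 0.83 with a wider monocyte list.

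**Figure D1:**
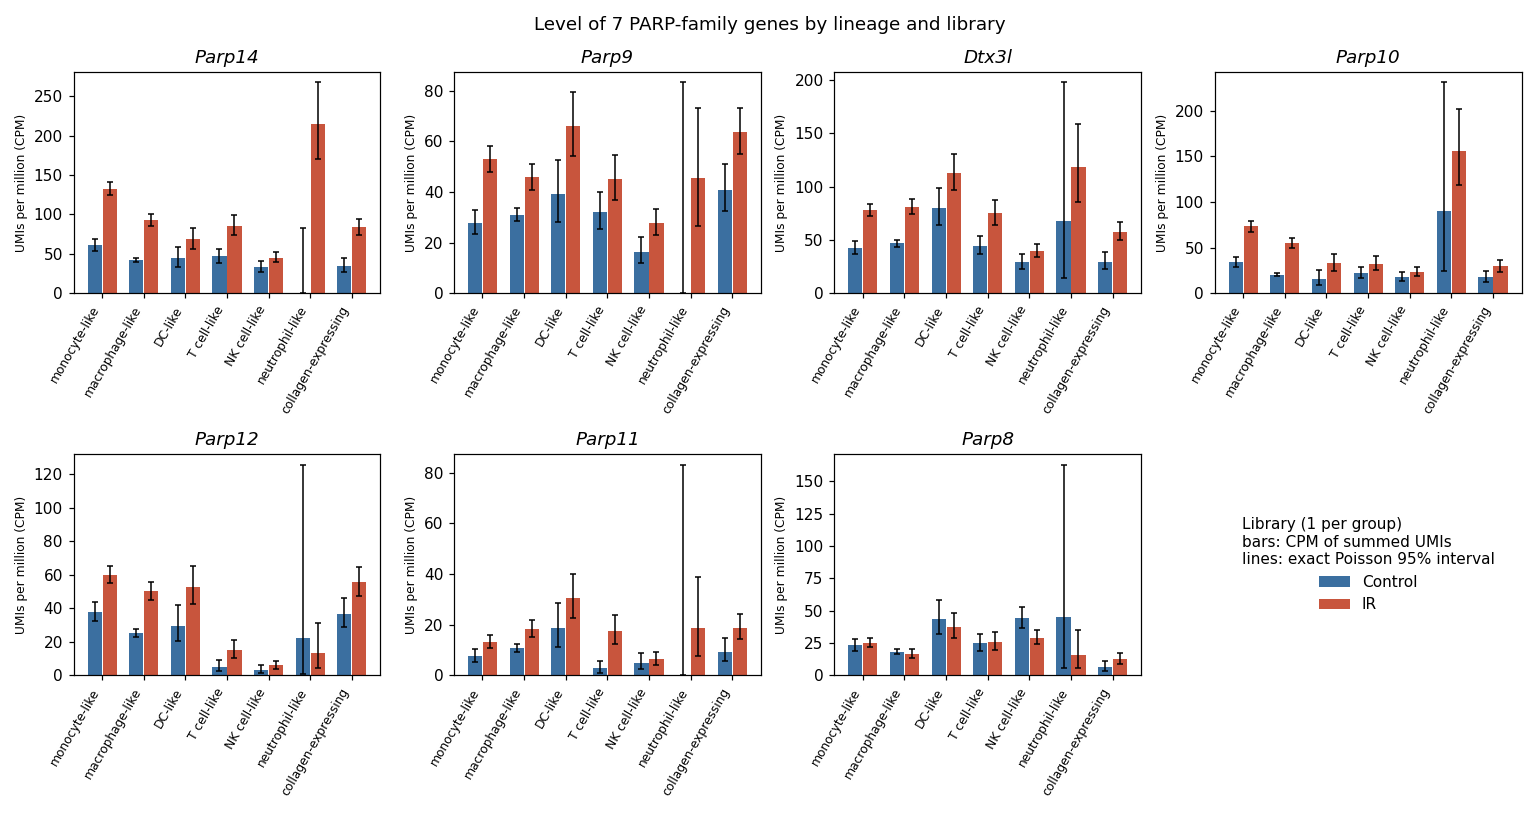
Level of each member in 7 cell populations of the Control (blue) and IR (red) libraries, in CPM with exact Poisson 95% intervals and 1 library per group; scales differ between genes. Parp14 in monocyte-like cells stood at 60.9 CPM in Control against 133 CPM in IR, Parp8 at 23.3 and 25.2 CPM, and the wide Control intervals of neutrophil-like cells rest on 25 cells.

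In macrophage-like cells 5 of 7 members passed 1.5-fold, against 6.99% of 10410 genes, and 6 of 7 had a ratio interval above 1, against 17.2% of genes. The median log2 ratio of the members was 0.79 and that of all genes was -0.06. Parp10 showed the largest ratio of the members here, 2.68 (2.31 to 3.099), from 20.5 CPM (18.5 to 22.6) in Control to 54.8 CPM (49.2 to 60.7) in IR. Parp14 went from 42.1 CPM (39.2 to 45.2) to 92.9 CPM (85.7 to 101), a ratio of 2.21 (1.98 to 2.46), close to its ratio in monocyte-like cells.
Parp12 had a ratio of 1.98 (1.72 to 2.29) and reached 50.2 CPM in IR from 25.3 CPM. Dtx3l went from 46.8 to 81.0 CPM, a ratio of 1.73 (1.55 to 1.93), and Parp11 from 10.9 to 18.3 CPM, a ratio of 1.68 (1.33 to 2.12). Parp9, the partner of Dtx3l, fell just short of 1.5-fold, with 31.0 CPM in Control, 45.7 CPM in IR and a ratio of 1.47 (1.28 to 1.70).
Parp8 again did not differ beyond counting error, at 18.2 CPM (16.3 to 20.2) and 16.7 CPM (13.7 to 20.2), a ratio of 0.921 (0.735 to 1.15). The interferon reference list went from 494 to 2117 CPM in the same cells. Cell-cycle genes went from 770 to 244 CPM, the 5 monocyte markers from 706 to 683 CPM and C1q genes from 7779 to 5345 CPM. Ly6c2, a gene of inflammatory monocytes that the gate did not use, went from 73.6 to 702 CPM in macrophage-like cells and from 793 to 1541 CPM in monocyte-like cells. The part of these shifts in the members' ratios was looked at only by leaving out cycling cells, which gave a median of 0.76, and by gating with a wider monocyte list that holds Ly6c2, which gave 0.68.

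In T cell-like cells the ratios were largest for Parp11 and Parp12, the members with the fewest UMIs there. Parp11 had 7 UMIs or 2.86 CPM (1.15 to 5.90) in Control against 40 UMIs or 17.5 CPM (12.5 to 23.9) in IR, a ratio of 6.12 (2.71 to 16.2). Parp12 had 13 UMIs or 5.32 CPM (2.83 to 9.09) and 35 UMIs or 15.3 CPM (10.7 to 21.3), a ratio of 2.88 (1.49 to 5.94). Both had under 50 UMIs in all and were not counted for the fold call.
Of the 5 members that were, Parp14 (46.6 CPM in Control against 85.8 CPM in IR, 1.84-fold) and Dtx3l (44.6 and 74.9 CPM, 1.68-fold) passed 1.5-fold, or 2 of 5, against 6.57% of 7411 genes. The ratio interval lay above 1 for 6 of 7 members, against 10.8% of genes, with Parp9 at 1.41 (1.04 to 1.92) and Parp10 just under the fold at 1.495 (1.04 to 2.17). Parp8 had 24.9 CPM in Control against 25.8 CPM in IR.
Parp11 and Parp12 were low enough for foreign RNA to matter. From macrophage genes seen in T cell-like barcodes, its share was estimated at 11.4% of their UMIs in Control and 20.4% in IR, without telling free RNA from doublets. At these shares the profile of empty droplets would supply 53.2% of the Control and 43.4% of the IR level of Parp12. For Parp11 these shares were 37.9% and 13.4%. With free RNA subtracted the log2 ratio of Parp11 was 3.25 instead of 2.61 and that of Parp12 1.96 instead of 1.53. For Parp10 the shares were 11.1% in Control and 27.6% in IR, and subtraction lowered its log2 ratio from 0.58 to 0.44. Thinning every cell to 1000 UMIs took the median of the members from 0.75 to 0.21 over the 5 members left with enough UMIs, and turned Dtx3l to -0.25.
Within the T cell-like cells, 195 Control and 126 IR cells were CD8 T cell-like and 89 and 53 were CD4 T cell-like. Parp11 in CD8 T cell-like cells had 1 UMI in Control and 14 in IR, a log2 ratio of 3.84 with a counting interval of 1.12 to 9.24. Parp14 had log2 ratios of 1.22 (0.64 to 1.82) in CD8 and 0.97 (0.28 to 1.69) in CD4 T cell-like cells, and Dtx3l 0.998 (0.44 to 1.58) and 0.54 (-0.13 to 1.24). The intervals of the subsets overlapped for both genes.

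NK cell-like cells had the lowest median of the lineages compared, a log2 ratio of 0.44, against -0.06 for all genes. Parp9 was the only member past 1.5-fold upward, 1 of 5 with enough UMIs against 4.55% of 7758 genes, with 16.4 CPM (11.8 to 22.2) in Control against 27.6 CPM (22.8 to 33.1) in IR, a ratio of 1.68 (1.17 to 2.45). Parp14 (33.3 and 45.1 CPM) and Dtx3l (29.4 and 39.9 CPM) each had a ratio of 1.36, with intervals just above 1, so that 3 of 7 members had an interval above 1 against 8.82% of genes. Parp10 had 17.6 and 23.8 CPM, with an interval that included 1.
Parp8 differed the other way. It had 113 UMIs or 44.2 CPM (36.4 to 53.2) in Control against 123 UMIs or 29.2 CPM (24.3 to 34.9) in IR, a ratio of 0.661 (0.508 to 0.861). With at least 50 UMIs this was the only member value at least 1.5-fold lower in IR among the lineages described here, 1 of 5 against 7.48% of the genes tested in NK cell-like cells. This call lay close to the threshold, at a log2 ratio of -0.60. It fell short of 1.5-fold under TMM scaling (-0.53) and at 2000 UMIs per barcode (-0.56), but not under thinning (-0.78) or free RNA subtraction (-0.59). The interferon reference list still went from 227 to 593 CPM in these cells, with a median log2 ratio of 1.73.
Parp12 was near the level of free RNA in NK cell-like cells, which would supply 39.3% of its 3.13 CPM in Control and 43.9% of its 5.94 CPM in IR. Parp11 had 13 UMIs in Control and 27 in IR, too few to show whether its level differed (ratio interval 0.629 to 2.66). The ratio of the 7 members summed was 1.19 (1.05 to 1.35), a log2 value of 0.26, and thinning gave a median of 0.12 over 4 members.

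DC-like cells, of which 118 in Control and 138 in IR were mature DC-like (Ccr7 and Fscn1), held 5 of 7 members past 1.5-fold, against 9.87% of 5117 genes, and 5 of 7 with an interval above 1, against 12.4% of genes. Dtx3l was more abundant here than in any other Control lineage of at least 200000 UMIs, with 79.9 CPM (63.9 to 98.6) in Control against 113 CPM (97.1 to 130) in IR, but its ratio of 1.41 (1.09 to 1.85) stayed under the fold. Parp9 went from 39.0 CPM (28.1 to 52.7) to 65.8 CPM (54.0 to 79.5), a ratio of 1.69 (1.17 to 2.47). Parp12 went from 29.7 to 53.0 CPM, a ratio of 1.78 (1.18 to 2.77).
Parp10 had 17 UMIs in Control and 54 in IR, a ratio of 2.08 (1.19 to 3.84). Parp14 had a ratio of 1.53 (1.08 to 2.19), from 44.6 to 68.3 CPM, and Parp11 one of 1.64 (0.959 to 2.91). Parp8 had 43.6 CPM (32.1 to 58.0) in Control against 37.8 CPM (29.0 to 48.4) in IR, again without a difference beyond counting error. The median log2 ratio was 0.71, but thinning to 1000 UMIs per cell left only Dtx3l with at least 20 UMIs, at 0.36, and turned Parp9 to -0.59 and Parp12 to -1.03 on fewer UMIs.

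Neutrophil-like cells gave the highest levels of Parp14 and Parp10 among IR lineages of at least 200000 UMIs. Parp14 had 0 UMIs in the 25 Control cells, where 3 counts make 67.7 CPM, and 80 UMIs or 215 CPM (170 to 267) in the 141 IR cells, at least 3.17-fold higher than those 3 counts. The exact ratio interval began at 2.52. Parp10 had 4 UMIs in Control against 58 UMIs or 156 CPM (118 to 201) in IR, and Dtx3l 3 and 44 UMIs or 118 CPM (85.8 to 159). With 44331 Control UMIs the ratio intervals of Parp10 (0.639 to 6.55) and Dtx3l (0.560 to 8.79) included 1.
Past 1.5-fold were the 2 members with at least 50 UMIs, against 19.4% of 1003 genes, but both reached 50 UMIs through the much larger IR sum, so nothing is read from this count. An interval above 1 was found for Parp14 alone, against 5.71% of genes with at least 20 UMIs. TMM scaling moved all log2 ratios of this lineage by 0.63, so its folds depend on the scaling. With at least 2000 UMIs per barcode only 4 Control neutrophil-like cells remained and the direction turned, with log2 ratios of -0.27 for Parp10, -0.997 for Dtx3l and -0.36 for Parp14, the last set at 3 Control counts.

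The collagen-expressing cells are not leukocytes, and all 7 members were past 1.5-fold there, against 6.13% of 8265 genes, with 7 of 7 intervals above 1, against 10.3% of genes. The median log2 ratio was 0.97, and no alternative setting was run for this population. Parp14 went from 34.7 CPM (26.9 to 44.1) to 83.7 CPM (73.8 to 94.4), a ratio of 2.41 (1.84 to 3.20), and Parp9 from 40.9 to 63.5 CPM, a ratio of 1.55 (1.19 to 2.04).
Parp8 was also higher in IR in these cells, unlike in the leukocyte lineages, with 12 UMIs or 6.21 CPM (3.21 to 10.9) in Control against 39 UMIs or 12.5 CPM (8.86 to 17.0) in IR, a ratio of 2.004 (1.03 to 4.21). Its level intervals overlapped. The median cell had 18273 UMIs in Control and 32008.5 in IR, and free RNA made up 0.974% and 0.231% of them.

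**Figure D2:**
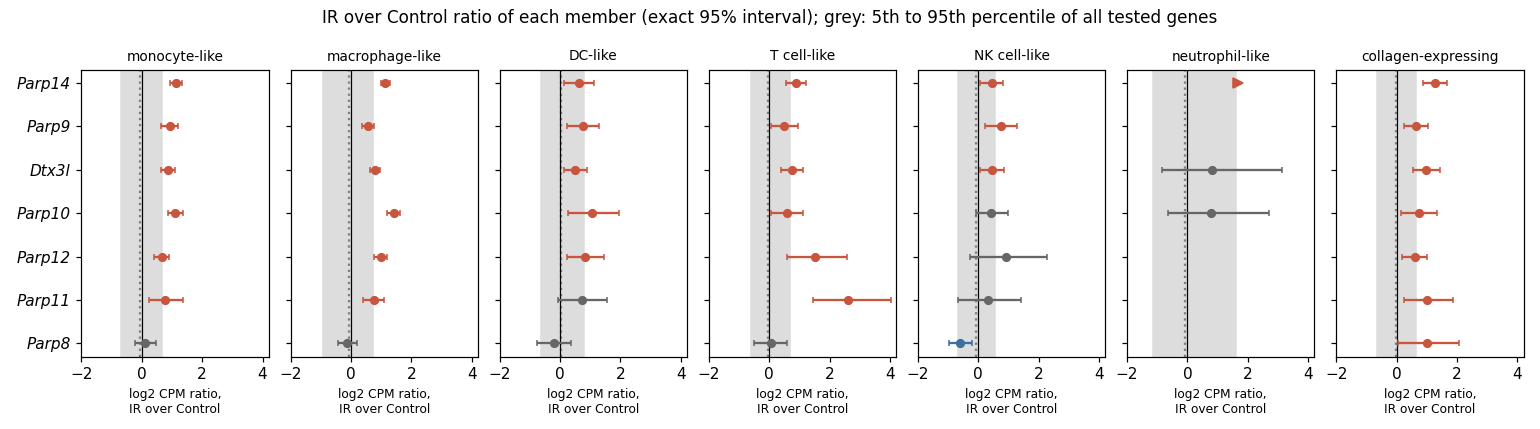
Log2 CPM ratio, IR over Control, of each member in 7 cell populations with exact 95% intervals (red above 0, blue below 0, grey including 0); the grey band spans the 5th to 95th percentile of all tested genes, the dotted line is their median, and the arrowhead marks a lower bound. Parp8 lay near 0 in monocyte-like cells (0.11) and below 0 in NK cell-like cells (-0.60), while Parp14 reached 1.12 and 0.44 there.

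Across all kept cells, whatever their lineage, 6 of 7 members passed 1.5-fold, against 10.0% of 12769 genes. Parp14 went from 44.5 to 97.2 CPM, Parp10 from 22.6 to 51.6 CPM, Parp12 from 24.0 to 43.8 CPM and Parp11 from 10.2 to 15.3 CPM. Parp8 stayed at 22.7 CPM in Control against 22.9 CPM in IR.
The libraries differ in composition, since macrophage-like cells made up 41.5% of the Control library and 15.9% of the IR library, and monocyte-like cells 15.003% and 25.7%. With each population held at its Control share of UMIs, the log2 ratio of Parp14 was 1.09 instead of 1.13 and that of Parp10 stayed at 1.19. Parp8 went from 0.01 to -0.12.

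The members also differed in where they were expressed. Levels of 1 gene are compared between lineages here, not levels of different genes, and only lineages with at least 200000 UMIs in a library are ordered, among them 20 B cell-like cells in Control. Parp12 differed most widely: in Control its 4 highest lineages, monocyte-like, collagen-expressing, DC-like and macrophage-like cells at 38.0, 36.8, 29.7 and 25.3 CPM, overlapped one with the next, and all were above T and NK cell-like cells at 5.32 and 3.13 CPM and B cell-like cells with 0 UMIs (0 to 17.6 CPM). The same 4 lineages led in IR, at 50.2 to 60.02 CPM, while neutrophil-like cells (13.4 CPM, 4.36 to 31.3) overlapped T cell-like cells (15.3 CPM, 10.7 to 21.3).
Parp10 was led by monocyte-like cells in Control (34.1 CPM), above the next lineage, T cell-like cells (21.7 CPM), while the other lineages overlapped each other. In IR the order was neutrophil-like (156 CPM), monocyte-like (73.3 CPM) and macrophage-like cells (54.8 CPM), each above the next without overlap. Parp14 showed the same first 3 lineages in IR, with 215, 133 and 92.9 CPM, but macrophage-like and T cell-like cells (85.8 CPM) overlapped.
Parp8 had another order. In Control NK cell-like (44.2 CPM) and DC-like cells (43.6 CPM) overlapped and were above T cell-like cells (24.9 CPM), and the lowest were collagen-expressing cells (6.21 CPM) and B cell-like cells, which had 0 UMIs and an interval up to 17.6 CPM. In IR the first 4 lineages, DC-like, NK cell-like, T cell-like and monocyte-like cells, at 37.8 to 25.2 CPM, each overlapped the next. Parp11 and Dtx3l were highest in DC-like cells in Control, at 18.6 and 79.9 CPM. For Parp11 that level overlapped that of macrophage-like cells (10.9 CPM), and Dtx3l was above them (46.8 CPM).
Over 15 lineage-by-library sums with at least 200000 UMIs, Parp14 and Parp10 varied together most closely of any pair of members. Their Pearson correlation of log2(CPM + 10) was 0.95, and Parp11 and Dtx3l followed at 0.90. The neutrophil-like IR sum was the highest point of both Parp14 and Parp10, and no correlation without it was computed. Parp8 had correlations of -0.14 to 0.57 with the other members. Among 10656 genes compared, those most like Parp14 were Ifit2 (0.95), Ifi47 (0.95) and Sra1 (0.94), and those most like Parp10 were Sra1 (0.98), Ifi47 (0.97) and Oas3 (0.95). Dtx3l was most like Trafd1 (0.94), Rnf114 (0.92) and Bloc1s3 (0.91), and Parp9 most like Ogfr (0.87), Bst2 (0.80) and Stat2 (0.79).
Parp11 was most like Tapbp (0.91), Ssu72 (0.90) and Plekhn1 (0.89), Parp12 most like Gsdmd (0.93), Tmbim1 (0.92) and Gnb2 (0.91), and Parp8 most like Sharpin (0.94), Irf8 (0.91) and Nr4a2 (0.91). These correlations are descriptions over points that share 2 libraries and differ in depth.

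The next comparison asked whether the members followed the interferon state of single cells. Cells were binned, after thinning to 1000 UMIs each, by how many of those UMIs came from the 10 interferon reference genes, and member levels were then read at full depth. In monocyte-like cells of the Control library the members summed to 157 CPM (143 to 172) in 397 cells with 0 reference UMIs, 298 CPM (272 to 325) in 249 cells with 1 to 2, 498 CPM (416 to 592) in 44 cells with 3 to 5, and 1062 CPM (818 to 1356) in 12 cells with 6 or more. In the IR library they summed to 263 CPM (243 to 283) in 275 cells, 376 CPM (355 to 398) in 321 cells, 564 CPM (524 to 605) in 144 cells and 830 CPM (779 to 884) in 135 cells of the same bins. The summed members were thus higher in each higher bin of both libraries, without overlap between the intervals of neighbouring bins, also when the Control bin of 12 cells is left out. How many of all genes rise in this way over the bins was not computed.
Parp14 went from 32.1 CPM (25.9 to 39.3) in the lowest to 134 CPM (93.5 to 187) in the third Control bin, and from 73.9 CPM (63.8 to 85.1) to 262 CPM (233 to 293) from the lowest to the highest IR bin. Parp12 went from 30.6 to 131 CPM and Dtx3l from 44.4 to 162 CPM between the lowest and highest IR bins. Parp8 had 23.7 CPM (18.2 to 30.4) in the lowest and 30.5 CPM (21.4 to 42.2) in the highest IR bin, which overlapped. In Control it had 19.5 CPM (14.7 to 25.4), 28.3 CPM (20.8 to 37.8) and 23.0 CPM (8.44 to 50.1) in the first 3 bins and 66.4 CPM on 4 UMIs in the highest (18.1 to 170), again with overlap of neighbours.
Macrophage-like cells gave the same order for the sum, with 160 CPM (153 to 167), 240 CPM (227 to 254) and 436 CPM (386 to 490) in the first 3 Control bins, and 249 CPM (229 to 271), 318 CPM (297 to 341), 478 CPM (440 to 519) and 747 CPM (675 to 824) in the IR bins. Parp10 reached 118 CPM (90.6 to 151) in the highest IR bin from 40.4 CPM (32.4 to 49.7) in the lowest, and Parp8 had 18.7 and 15.9 CPM. In Control macrophage-like cells Parp8 had 16.7 CPM (14.5 to 19.1), 20.7 CPM (17.0 to 24.9), 22.0 CPM (12.0 to 36.8) and, on 5 UMIs, 49.7 CPM (16.2 to 116), each overlapping the next.
The cells were also distributed differently. Cells with 0 reference UMIs were 56.6% of monocyte-like cells in Control and 31.4% in IR, and those with 6 or more were 1.71% and 15.4%. Within the lowest bin IR cells still had more member RNA than Control cells, 263 against 157 CPM in monocyte-like and 249 against 160 CPM in macrophage-like cells, but at full depth they also had more reference RNA, 737 against 278 CPM and 840 against 279 CPM, so the bins do not hold the interferon level equal. In the bin of 3 to 5 the intervals of the libraries overlapped in both lineages. The order was less complete in the smaller lineages. The lowest and next Control bins overlapped in NK cell-like cells (141 and 161 CPM) and DC-like cells (250 and 272 CPM), as did the first 3 IR bins of DC-like cells (308, 342 and 382 CPM), and the highest IR bins of T cell-like cells (659 and 641 CPM). Parp8, grouped here as interferon-induced, had ratio intervals that included 1 in monocyte-like and macrophage-like cells, and its neighbouring bins overlapped there. In NK cell-like cells of the IR library Parp8 had 27.0 CPM (21.3 to 33.8) at 0 reference UMIs and 28.4 CPM (19.6 to 39.9) at 1 to 2. At 3 to 5 it had 89.7 CPM (44.8 to 161), above the bin of 1 to 2 without overlap, on 11 UMIs in 14 cells. At 6 or more it was back at 27.0 CPM (3.27 to 97.7), on 2 UMIs in 9 cells, and overlapped the bin of 3 to 5. In DC-like cells of the IR library Parp8 had 50.5, 34.2, 37.5 and 14.5 CPM from the lowest to the highest bin, each overlapping the next. Whether interferon induces Parp8 in these cells was not tested.

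**Figure D3:**
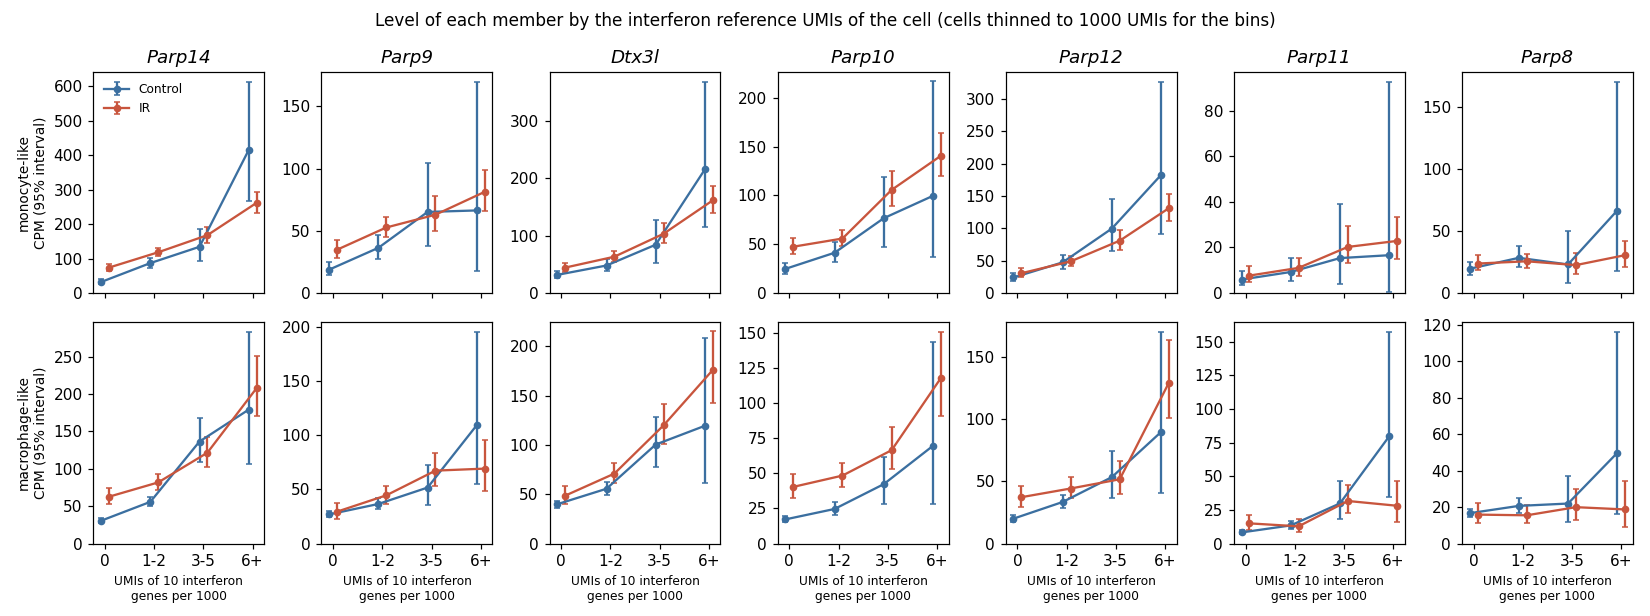
Level of each member (CPM with exact Poisson 95% interval) in monocyte-like (top) and macrophage-like cells (bottom), by the UMIs of 10 interferon reference genes in the cell after thinning to 1000 UMIs, in Control (blue) and IR (red). Parp14 climbed from 73.9 to 262 CPM over the IR bins of monocyte-like cells, Parp8 had 23.7 and 30.5 CPM at the ends, and the highest Control bins hold 12 and 14 cells.

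The last comparison set the members beside the rest of the ADP-ribosylation system, in 4 lists that share none of the members. Of 9 other PARP enzymes with at least 50 UMIs in monocyte-like cells, 1 (Parp6) was past 1.5-fold upward and 0 downward, against 6.0% and 6.95% of all genes, and its interval included 1. Of 10 in macrophage-like cells, 0 passed in either direction, against 6.99% and 11.3%. The medians of this list were -0.04 and -0.10 on the log2 scale, near the medians of all genes. Some genes under the fold still had an interval that left out 0. Parp3 had log2 ratios of 0.57 (0.18 to 0.98) in monocyte-like and 0.39 (0.11 to 0.67) in macrophage-like cells. Tnks2 had -0.21 (-0.42 to -0.003) in macrophage-like cells. Such intervals were also found for Parp1, Zc3hav1 and Tiparp in both lineages.
Parp1, the main poly-ADP-ribose polymerase of the DNA damage response, had lower levels in IR: 39.1 CPM (33.7 to 45.1) and 29.4 CPM (25.8 to 33.3) in monocyte-like cells, a log2 ratio of -0.41 (-0.69 to -0.13), and 55.9 and 38.8 CPM in macrophage-like cells, a log2 ratio of -0.53 (-0.73 to -0.33). Zc3hav1, which encodes the zinc-finger antiviral protein (PARP13), had 105 and 145 CPM in monocyte-like cells, a log2 ratio of 0.47 (0.32 to 0.62), and 0.45 (0.33 to 0.58) in macrophage-like cells. Both genes stayed under 1.5-fold in size. Tiparp (PARP7), a target of the aryl hydrocarbon receptor, had log2 ratios of -0.14 and -0.16.
Among the genes that remove ADP-ribose, 6 of 7 matched a symbol and 0 of 5 in monocyte-like and 1 of 6 in macrophage-like cells passed the fold. That gene was Macrod1, a mono-ADP-ribose hydrolase, with 109 UMIs or 5.85 CPM in Control against 13 UMIs or 1.99 CPM in IR, a log2 ratio of -1.55 (-2.51 to -0.72).
NAD, the source of the ADP-ribose that active PARPs attach, is made in most cells through Nampt. Nampt had 260 and 267 CPM in monocyte-like and 265 and 257 CPM in macrophage-like cells. Of the NAD genes, 1 of 4 in monocyte-like cells was past 1.5-fold, the NAD glycohydrolase Cd38 with 15 and 55 UMIs (log2 ratio 1.09, 0.24 to 2.02), and 1 of 6 in macrophage-like cells, its relative Bst1 with 76.3 and 120 CPM (0.66, 0.53 to 0.79). Of the other Deltex genes, 0 of 3 passed in either lineage. The counts of these 4 lists came to 4 calls in 46 gene and lineage values. Of all genes tested, 6.0% were past the fold upward and 6.95% downward in monocyte-like cells, and 6.99% and 11.3% in macrophage-like cells. Beside these shares nothing is read from the single calls.

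**Figure D4:**
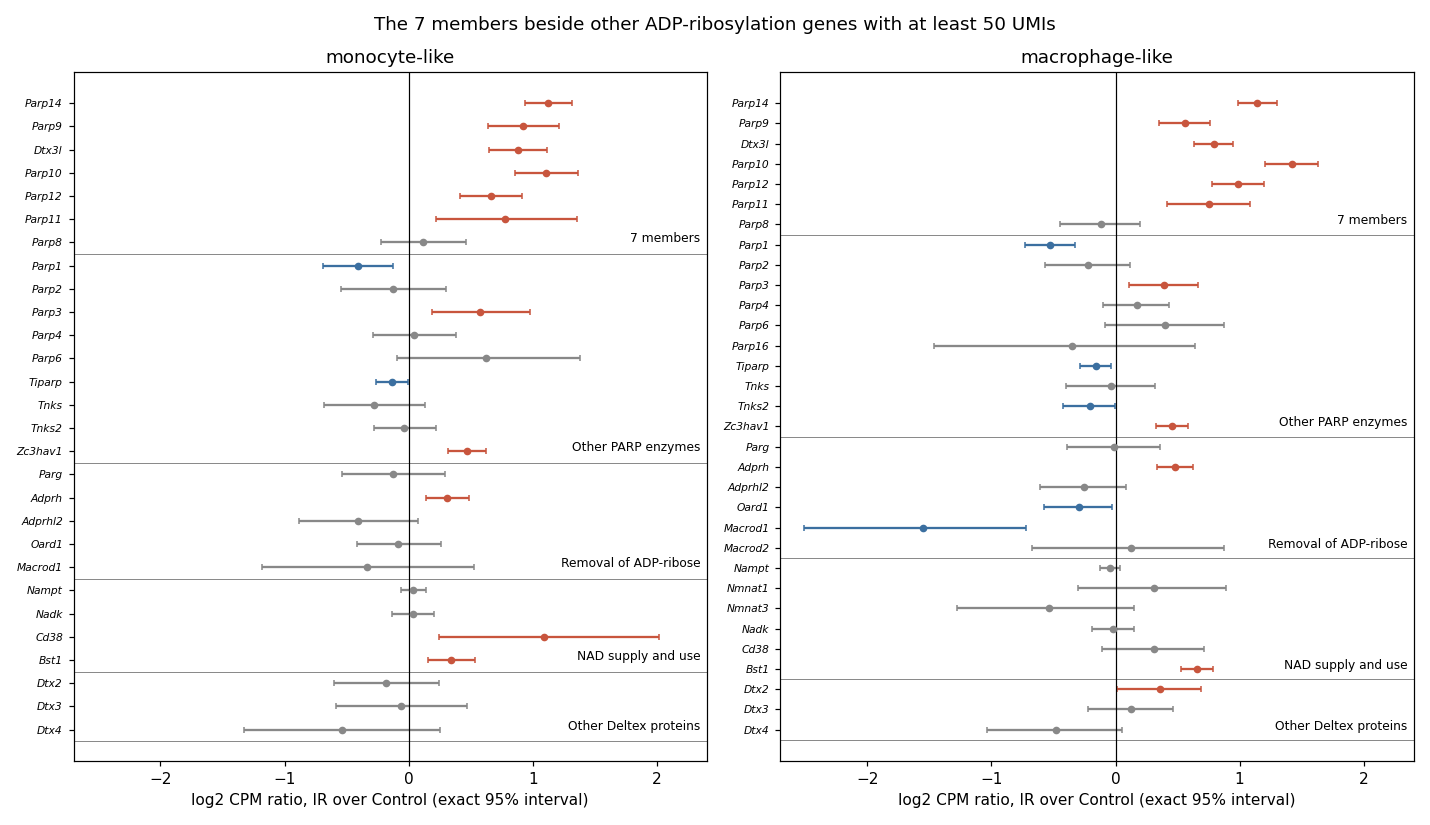
Log2 CPM ratio, IR over Control, with exact 95% intervals, of the 7 members and of 4 other lists of ADP-ribosylation genes with at least 50 UMIs, in monocyte-like (left) and macrophage-like cells (right); red lies above 0, blue below 0 and grey includes 0. The members except Parp8 lay from 0.56 to 1.42, while Parp1 lay at -0.41 and -0.53 and Zc3hav1 at 0.47 and 0.45.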

How the data were processed

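Deposited by the authors was 1 unfiltered matrix of raw UMI counts for each library, which the methods of the study and the processing notes attribute to Cell Ranger 6.0.1 on mm10 (the file headers name Cell Ranger 4). The counts totalled 48593879 UMIs in Control and 42406461 in IR. Cells were gated with at least 2 distinct markers of a lineage above a minimum share of UMIs, set after the marker distributions were seen. Barcodes with markers of several lineages (519 Control and 447 IR) were set aside as possible doublets, and 379 and 335 had no lineage. The automatic threshold of Scrublet (scanpy 1.11.5) marked 0 and 1 cells and had not worked, so the 6% with the highest score were removed as an alternative.

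UMIs were summed per library and lineage and expressed as CPM. Levels carry exact Poisson intervals, and ratios exact conditional (Clopper-Pearson) 95% intervals. A gene counted as past the fold at 1.5 with at least 50 UMIs over both libraries, and the member medians used genes with at least 20, with a count of 0 set to 3 counts in Control. The calls were tested on simulated data. Lists, members and the genes named by rule (all members, the 3 most alike genes, and listed genes past the fold with an interval leaving out 1 in monocyte-like or macrophage-like cells, with Parp1, Zc3hav1, Tiparp and Nampt) were chosen with earlier results of these data known. Parp6, Parp3 and Tnks2 were named after their values were seen. Alternatives concerned depth, mitochondrial limit, doublets, thinning, TMM scaling (edgeR 4.0.16, R 4.3.3), the CPM total, free RNA (profile of barcodes of at most 100 UMIs), filter and gates. The smallest ratio of the interferon reference list is not reported here.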

Additional observations from a re-analysis of the deposited data

Results flagged for a closer look

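Parp8 differed in opposite directions in populations of the same libraries. Its log2 ratio, IR over Control, was -0.60 in NK cell-like cells and 1.003 in collagen-expressing cells, and each interval left out 0. The difference between these populations was not tested.

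Empty droplets are barcodes of at most 100 UMIs, used elsewhere only to estimate foreign RNA. They held more RNA of Parp10, Parp14, Parp9, Parp12 and Dtx3l in IR than in Control. The share of all genes that did so in the droplets was not computed. The log2 ratio was 1.05 for Parp10, 0.93 for Parp14, 0.47 for Parp9, 0.39 for Parp12 and 0.37 for Dtx3l, with intervals above 0. Parp8 stood at 25.2 CPM in Control droplets and at 20.3 CPM in IR droplets, and Parp11 at 9.54 and 11.5 CPM, with intervals that included 0. The members summed to 187 CPM in Control droplets and to 267 CPM in IR droplets, and the interferon reference list to 510 and 1685 CPM. Where the RNA in these droplets came from was not tested.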

How the results depend on the processing

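The medians of the members stayed above 0 under every alternative that was run (none was run for collagen-expressing cells), except in neutrophil-like cells, where at least 2000 UMIs per barcode gave -0.36 in place of 0.80: 4 Control cells remained and Parp14, at 0 there, was set to 3 counts. Of 72 alternative values of the medians and counts, 57 stayed near the value reported, 14 moved away from it and 1 reversed. A median stayed if it lay no further from the reported median than the interval bounds of the summed members' ratio lie from their midpoint. The medians have no interval of their own. A count stayed within 1.5 times the value reported. Thinning to 1000 UMIs gave medians of 1.13 in monocyte-like, 0.21 in T cell-like, 0.12 in NK cell-like, 0.36 in DC-like and 0.80 in all kept cells. Under it 12 of 25 member and lineage ratios had an interval above 1, in place of 27 of 38. Fewer UMIs were left under thinning, which weights each cell equally, and no share of all genes is given for it. CPM without mitochondrial, ribosomal protein and interferon reference genes gave 0.71 in macrophage-like and 0.65 in all kept cells. The ratio of summed UMIs gave 0.88 in macrophage-like, 0.26 in NK cell-like and 0.82 in all kept cells. The wider monocyte list gave 0.68 in macrophage-like cells, Control shares gave 0.75 in all kept cells, and a threshold of 2-fold left 2 of 4 calls among the other ADP-ribosylation genes. Of 170 values of single members, 150 stayed within their interval and 5 reversed: under thinning Dtx3l in T cell-like (-0.25) and NK cell-like cells (-0.11) and Parp9 (-0.59) and Parp12 (-1.03) in DC-like cells, and at 2000 UMIs Parp14 in neutrophil-like cells (-0.36, a bound). A single member counted as reversed only where its reported interval left out 1. Other signs changed too, as for Parp10 (-0.27) and Dtx3l (-0.997) in neutrophil-like cells at 2000 UMIs. Under thinning this held for Parp11 in DC-like (-0.03) and Parp8 in macrophage-like (0.26) and T cell-like cells (-0.24). Parp8 in all kept cells, near 0 throughout, changed sign under thinning and TMM scaling. Beyond these constructions the cause of the shifts was not tested. Free RNA subtraction was not run for all kept cells. No paired analysis was possible because each group was 1 library.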
